A study of Mus musculus with 4 samples.

Results

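Cytochrome P450 genes, whose symbols begin with Cyp and a family number, were followed through the gastric corpus of mice given a high dose of tamoxifen. The members were every gene with such a symbol except Cyp51, read from probe sets that the platform annotation gives exactly 1 gene symbol. There were 72 such genes with 95 probe sets, among 18193 genes in all, and where a gene had several, the probe set brightest on average across the 4 arrays stood for it. All 72 symbols are current in the RefSeq annotation. Of the 72 genes, 29 were at or above the array median on at least 1 array and are called detected here. The other 43 were under it on all 4 and are called dim. This cut is no test of presence, so dim genes were not shown to be absent.

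The samples were described as RNA of the corpus epithelium, the acid-secreting part of the stomach, from wild-type mice 6 weeks old when treated. The mice were FVB/N, BALB/c and C57BL/6, and no array is tied to a strain in the labels. The 4 groups were vehicle at 2.5 days, tamoxifen at 12 hours, tamoxifen at 2.5 days and tamoxifen at 4.5 days, with 1 array each and 3 mice pooled on every array. Tamoxifen, which modulates estrogen receptors, was given by intraperitoneal injection at 5 mg per 20 g of body weight over 1 or 3 days, in a vehicle of 90% sunflower seed oil with 10% ethanol, and the schedule of each array is not in the labels. Pooling left no spread between mice to measure, so the differences below carry no p-value, and the vehicle array served all 3 comparisons. As that array is of 2.5 days, treatment cannot be told apart from time in the 12-hour and 4.5-day differences, nor from any difference in schedule. The arrays are separate pools, so an order over the times does not follow the same mice.

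P450 enzymes are heme proteins that use oxygen and electrons to oxidise small molecules. Members of families 1 to 3 mostly oxidise drugs and other foreign compounds, and family 4 hydroxylates fatty acids and eicosanoids. Members of most higher-numbered families make or break down steroids, bile acids, vitamin D and retinoic acid. Tamoxifen is itself a P450 substrate: in humans, enzymes of the 2D and 3A subfamilies turn it into its more potent metabolites. Many P450 genes of the liver and gut are switched on by nuclear receptors that sense foreign compounds, among them CAR (Nr1i3) and PXR (Nr1i2), and by the aryl hydrocarbon receptor (Ahr).

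Values are log2 RMA levels, and a difference of 1 is 2-fold. The array medians lay between 5.30 and 5.34. A level depends on the probes as well as on the RNA, so levels are compared between arrays and not between genes. The closest pair of arrays, tamoxifen at 2.5 and 4.5 days, had a robust SD of 0.15 over genes above the median, and 18 hybridisation controls differed from vehicle with an SD of 0.08 to 0.10. Markers of other tissues moved on the 12-hour array. Of 10 pancreatic acinar markers 9 were at least 2-fold higher there, their mean level being 12.77 against 7.08 in vehicle, and of 11 squamous markers 8 were at least 2-fold lower and 1, Sprr1a, higher, with a mean level of 5.45 against 8.72. Smooth muscle markers averaged 11.02 in vehicle and 10.65, 10.34 and 10.32 at 12 hours, 2.5 and 4.5 days, so the RNA was not of epithelium alone. Macrophage markers averaged 7.48, 7.76, 8.22 and 8.12 on the same arrays. The part of either in the P450 values was not tested.

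Most P450 genes did not pass 2-fold, and of those that did, Cyp4v3 alone did so at more than 1 time. At 12 hours Cyp2b10 and Cyp3a13 were at least 2-fold higher than vehicle, and Cyp4v3 and Cyp2f2 at least 2-fold lower. At 2.5 days Cyp4v3 alone of the 27 members compared was past 2-fold, lower. At 4.5 days Cyp2c29 and Cyp2d26 were higher and Cyp4v3, Cyp2d10 and Cyp2s1 lower. In all, 8 of the 29 detected members (27.6%) passed 2-fold at some time and 21 did not, where 8.49% of the 12445 genes compared at 1 or more times did. Family 2, which holds 35 of the 72 members and 13 of the 29 detected ones, had 6 of the 8, or 46.2% of its detected members. Of these, Cyp2c29 and Cyp2d10 were at or above the array median on 1 array each. The shares rest on few genes, and nothing particular to P450 genes or to family 2 is read from them. In a bulk sample, fewer cells of a type and less RNA per cell cannot be told apart.

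A gene entered a comparison when its brighter array of the pair reached the median of that array. At 12 hours 2 of 27 members (7.41%) were higher and 2 (7.41%) lower, where 0.996% and 1.92% of all 12253 genes compared were. At 2.5 days 0 of 27 were higher and 1 (3.70%) was lower, against 3.32% and 1.94% of 12295 genes. At 4.5 days 2 of 27 (7.41%) were higher and 3 (11.11%) lower, against 3.80% and 2.72% of 12303 genes. These member counts rest on so few genes that 1 gene moves each share by 3.70 percentage points, and nothing particular to the family is read from them. The median difference of the members compared was -0.12, -0.16 and -0.25 at 12 hours, 2.5 and 4.5 days, and that of all genes compared was -0.04, 0.02 and -0.01. With differences set relative to the hybridisation controls, which averaged -0.13 and -0.16 at 2.5 and 4.5 days, the split of members higher to lower was 1 to 2, 1 to 1 and 2 to 2 at the 3 times.

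**Figure D1:**
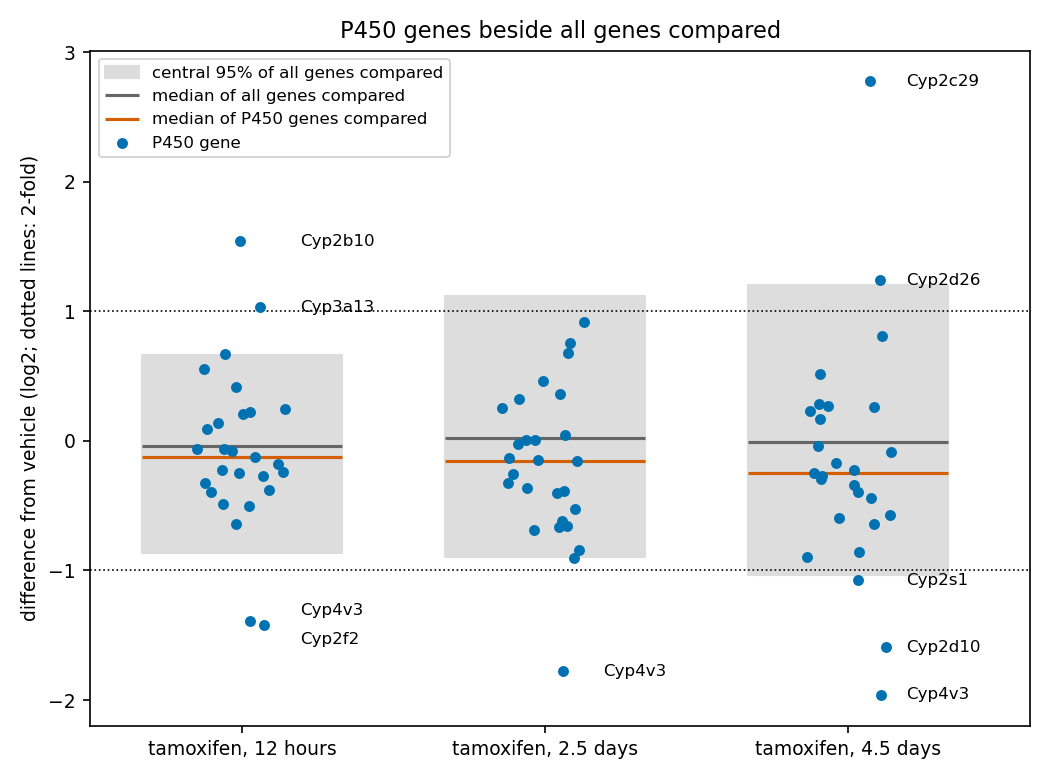
Differences of P450 genes from vehicle at 3 times after tamoxifen, on the log2 scale, with 27 genes compared at each time as points (sideways scatter is only for legibility). Grey boxes span the central 95% of all genes compared, from -0.86 to 0.67 at 12 hours, from -0.90 to 1.12 at 2.5 days and from -1.04 to 1.20 at 4.5 days; horizontal lines mark medians, dotted lines 2-fold, and genes past 2-fold are named.

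Cyp2b10, best known as the mouse liver gene that CAR switches on in response to phenobarbital-like compounds, had levels of 6.69 in vehicle and 8.23, 7.60 and 6.86 at 12 hours, 2.5 and 4.5 days after tamoxifen. It was highest on the earliest tamoxifen array and closest to vehicle on the last. The differences were 1.54 (2.91-fold), 0.91 and 0.17, and at 12 hours it had the 56th highest difference of the 12253 genes. Its 3 probe sets gave 1.54, 1.59 and 1.43 at 12 hours and 0.91, 0.97 and 0.88 at 2.5 days. The read-out probe set has a suffix by which the manufacturer marks probes that can match related transcripts, but the one with 1.43 has not. The other 3 genes of the 2B subfamily, Cyp2b9, Cyp2b13 and Cyp2b19, were under the array median on all arrays, none of them over 4.58.

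Cyp3a13, a member of the 3A subfamily of drug-oxidising enzymes, was at 8.82 in vehicle and at 9.85, 9.49 and 9.08 at 12 hours, 2.5 and 4.5 days. The order of its arrays was that of Cyp2b10. Its differences were 1.03 (2.04-fold), 0.67 and 0.26, so that it just passed 2-fold at 12 hours, and it was under 2-fold there once differences were set relative to the hybridisation controls, at 0.99. The other members of its subfamily, Cyp3a11, Cyp3a16, Cyp3a25 and Cyp3a44, were all dim, between 2.16 and 3.50. The mean level of the 10 acinar markers was 7.08 in vehicle and 12.77, 6.70 and 6.51 at 12 hours, 2.5 and 4.5 days. The part of the acinar and squamous shifts in the values of Cyp2b10 and Cyp3a13 was not tested.

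Of the receptors that sense foreign compounds, Nr1i2, which encodes PXR, was at 6.97 in vehicle and at 7.28, 7.14 and 6.92 at 12 hours, 2.5 and 4.5 days. Nr1i3, which encodes CAR, lay between 3.99 and 4.15, under the array median throughout. Aldh3a1, an aldehyde dehydrogenase known as a target of the aryl hydrocarbon receptor, had 11.46 in vehicle and 12.20, 12.36 and 11.52 at the 3 times, highest at 2.5 days and without a 2-fold step. Cyp1a1, the textbook target of that receptor, stayed under the array median at 3.84 to 4.60, and Ahr itself was between 8.87 and 9.01.

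Cyp4v3, the mouse counterpart of the human fatty acid hydroxylase gene CYP4V2, was the one member past 2-fold on every tamoxifen array. Its level was 8.61 in vehicle and 7.22, 6.83 and 6.65 at 12 hours, 2.5 and 4.5 days. All 3 tamoxifen arrays were below vehicle, with differences of -1.39, -1.78 and -1.96, which is 2.62-, 3.43- and 3.89-fold. At 2.5 and at 4.5 days it had the 54th lowest difference of all genes compared. Its second probe set was dimmer, 6.77 in vehicle, and gave -1.32, -1.63 and -1.50. Of 14 parietal cell markers 8 were at least 2-fold lower at 12 hours, 9 at 2.5 days and 8 at 4.5 days, with mean levels of 9.14, 9.12 and 9.17 against 10.39 in vehicle, and their part in the values of Cyp4v3 was not tested.

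Cyp2s1 encodes a P450 found chiefly in epithelia outside the liver. Its levels were 12.10 in vehicle and 11.87, 11.20 and 11.02 at 12 hours, 2.5 and 4.5 days. Its largest step down lay between the 12-hour and 2.5-day arrays. The differences from vehicle were -0.23, -0.90 and -1.07, the last being 2.10-fold and close to the threshold. Relative to the hybridisation controls it was -0.91 at 4.5 days and not past 2-fold. Cyp2j6, of an arachidonic acid epoxygenase subfamily, followed the same order without passing 2-fold, from 9.33 in vehicle to 9.09, 8.72 and 8.48, and its second probe set gave -0.54, -0.96 and -1.29. With the mean of a gene's probe sets in place of the brightest, Cyp2j6 was also at least 2-fold lower at 4.5 days, which made 4 members lower there and 9 past 2-fold at some time. The mean level of the chief cell markers was lower in the same order, at 11.24 in vehicle and 10.72, 10.27 and 9.54 afterwards. Of 7 markers 2, 4 and 5 were at least 2-fold lower at 12 hours, 2.5 and 4.5 days, but single markers differed in course. The 2 lower at 12 hours were Bhlha15 at -1.95 and Tnfrsf19 at -1.11. Pgc, Pga5, Cblif and Chia1 were then at -0.17, -0.21, -0.21 and 0.00. Bhlha15 was at -1.76 and -1.95 at 2.5 and 4.5 days, and Tnfrsf19 was at least 2-fold higher, at 1.04 and 1.41. The part of the chief cell markers in Cyp2s1 was not tested.

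Cyp2f2, known for oxidising naphthalene in the airway, was at 6.07 in vehicle, 4.65 at 12 hours, 5.40 at 2.5 days and 5.49 at 4.5 days. The 12-hour array was the low one, with a difference of -1.42 (2.67-fold), and the later arrays lay between, at -0.66 and -0.57. The mean level of the squamous markers was lowest on the same array, at 8.72, 5.45, 8.64 and 8.73 in the same order of arrays. The later means held differences both ways. Of 10 markers compared at 2.5 days 2 were at least 2-fold lower, Krt4 at -1.16 and Lor at -1.11, and 1 higher, Ivl at 1.98. Of 11 at 4.5 days 1 was lower, Krt4 at -1.07, and 1 higher, Ivl at 1.54. The part of the squamous shift in Cyp2f2 was not tested. Cyp4f39, which has a part in making skin ceramides in squamous epithelium, was 6.21 in vehicle and 6.03 at 12 hours, a difference of -0.18. Cyp2b19, a keratinocyte P450, was at most 3.38 on any array.

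On the 4.5-day array, 3 genes of the 2C and 2D subfamilies departed from the others. Cyp2c29, which makes epoxides of arachidonic acid in mouse liver, had levels of 3.80, 3.99 and 3.91 in vehicle and at 12 hours and 2.5 days, all under the array median, and 6.58 at 4.5 days. That single array stood apart, with a difference of 2.77 (6.84-fold), the 13th highest of the 12303 genes compared. It rests on 1 probe set and 1 pool of mice, and Cyp2c29 entered the comparison only through that same array. The nearest measured neighbours of Cyp2c29 in the gene cluster, Cyp2c65 and Cyp2c39, did not share this: Cyp2c65 differed by -0.44 at 4.5 days, and Cyp2c39 was at most 3.40 on any array. Of the 11 measured 2C genes 7 were under the array median throughout.

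Cyp2d26 was at 6.17 in vehicle, 5.53 at 12 hours, 6.49 at 2.5 days and 7.41 at 4.5 days. It was lowest at 12 hours, with a difference of -0.64, and at 4.5 days 1.24 above vehicle (2.36-fold). Cyp2d10, of the same cluster of drug-oxidising genes, went the other way, with 5.37 in vehicle, 5.29 at 12 hours, 4.71 at 2.5 days and 3.77 at 4.5 days. Its difference of -1.59 at 4.5 days (3.02-fold) ran from a vehicle level at the array median to a level well under it. Each was read by 1 probe set, and 4 other measured protein-coding 2D genes lie between them in the gene order of GRCm38.p6, all under the array median. The third detected 2D gene, Cyp2d22, stayed between 5.75 and 6.24.

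Liver RNA was checked beside these genes, since all 3 are abundant in liver. Of 11 hepatocyte markers 7 were under the array median on every array, albumin (Alb) at 4.92, 5.00, 4.54 and 5.21 in vehicle and at 12 hours, 2.5 and 4.5 days. Fgb, a fibrinogen gene, was at 3.92, 3.85, 3.80 and 4.04 on the same arrays. Ttr and Hpx were at least 2-fold lower at each time, Ttr from a level of 12.53 in vehicle, and the mean level of the list was 5.19 in vehicle and 4.76 at 4.5 days. Of 9 enterocyte markers none was at least 2-fold higher at any time, and their mean level was 7.23 in vehicle and 6.99 at 4.5 days. The part of liver or intestinal RNA in the 3 genes was not tested.

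**Figure D2:**
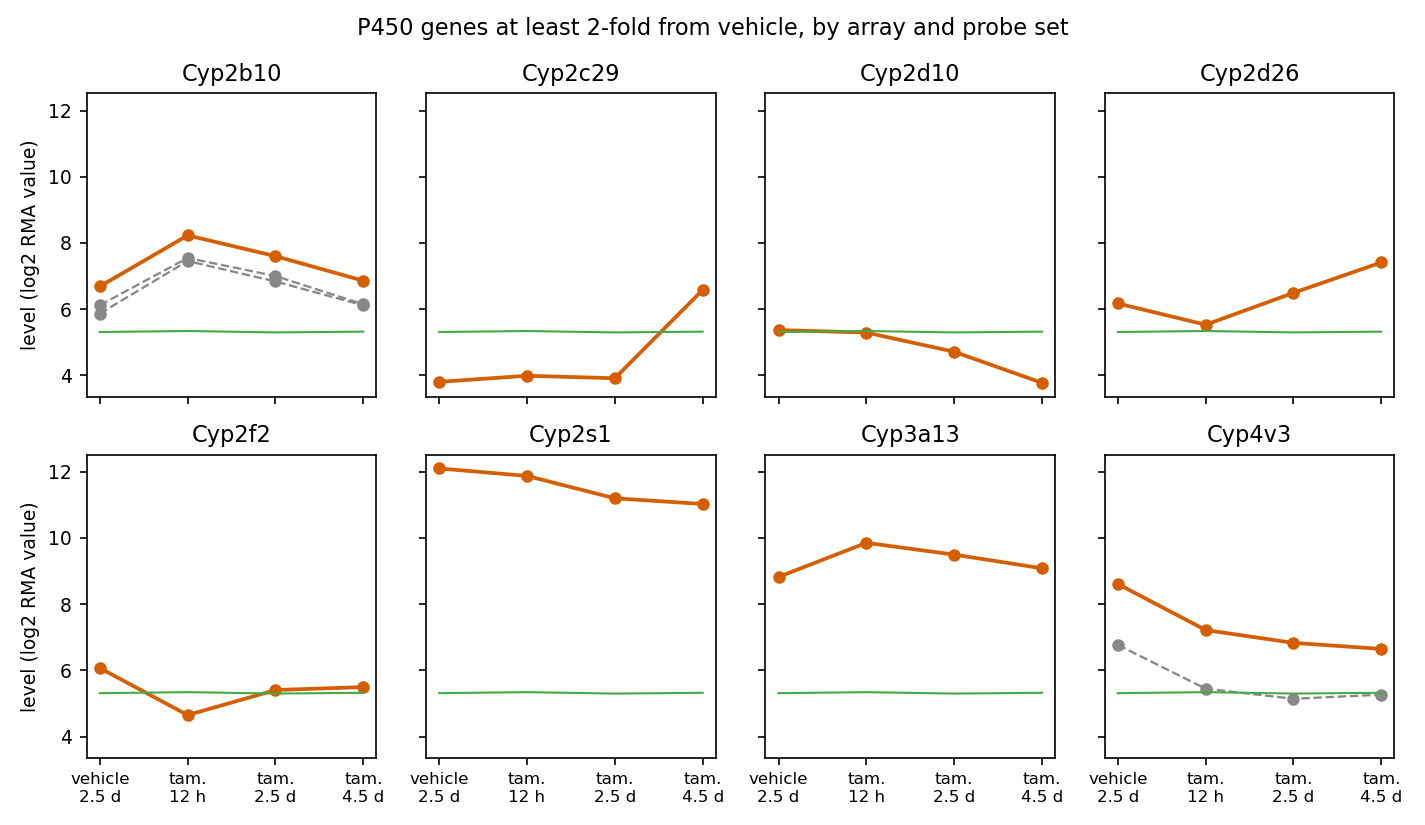
Levels of the 8 P450 genes past 2-fold on the 4 arrays (log2 RMA values; tam., tamoxifen; h, hours; d, days), with 1 array and so 1 point per group. Orange lines are the probe set used for the gene, grey dashed lines its other probe sets and green lines the array medians; Cyp2b10 and Cyp3a13 peak at 12 hours, Cyp4v3 is low on all tamoxifen arrays and Cyp2c29 is above the median at 4.5 days only.

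RefSeq start sites gave a promoter for 51 of the 72 members and for all 8 genes past 2-fold. Those of 5 genes are shown over the 250 bases before the start, on the gene's own strand: the pair that was higher at 12 hours, the 2D genes that parted at 4.5 days, and Cyp2c29. Capitals mark matches to a nuclear receptor hexamer (AGGTCA, both strands), to the core that the aryl hydrocarbon receptor binds (GCGTG, both strands) and to a TATA box (TATAA, sense strand only). The positions, in GRCm38.p6, are chr7:25897408-25897657, plus strand for Cyp2b10, chr5:137921620-137921869, minus strand for Cyp3a13, chr15:82407195-82407444, minus strand for Cyp2d10, chr15:82794246-82794495, minus strand for Cyp2d26 and chr19:39286835-39287084, plus strand for Cyp2c29.
Cyp2b10: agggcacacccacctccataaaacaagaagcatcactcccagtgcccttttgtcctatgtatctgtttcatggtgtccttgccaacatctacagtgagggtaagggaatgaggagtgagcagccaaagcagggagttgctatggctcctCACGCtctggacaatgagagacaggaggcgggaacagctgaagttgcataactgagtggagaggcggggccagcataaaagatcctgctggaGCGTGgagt
Cyp3a13: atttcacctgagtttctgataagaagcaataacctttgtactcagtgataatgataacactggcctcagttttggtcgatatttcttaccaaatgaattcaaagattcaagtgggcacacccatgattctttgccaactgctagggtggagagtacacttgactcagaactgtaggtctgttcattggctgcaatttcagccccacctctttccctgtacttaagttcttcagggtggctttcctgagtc
Cyp2d10: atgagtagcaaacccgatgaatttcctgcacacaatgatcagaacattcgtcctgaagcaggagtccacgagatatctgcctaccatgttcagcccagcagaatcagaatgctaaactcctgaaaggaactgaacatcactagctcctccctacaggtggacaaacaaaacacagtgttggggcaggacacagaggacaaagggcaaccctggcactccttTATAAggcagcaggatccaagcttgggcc
Cyp2d26: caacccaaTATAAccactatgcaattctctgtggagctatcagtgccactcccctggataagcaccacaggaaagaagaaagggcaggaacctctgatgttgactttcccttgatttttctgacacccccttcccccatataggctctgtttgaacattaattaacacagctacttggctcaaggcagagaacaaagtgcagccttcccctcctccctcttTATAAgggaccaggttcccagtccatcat
Cyp2c29: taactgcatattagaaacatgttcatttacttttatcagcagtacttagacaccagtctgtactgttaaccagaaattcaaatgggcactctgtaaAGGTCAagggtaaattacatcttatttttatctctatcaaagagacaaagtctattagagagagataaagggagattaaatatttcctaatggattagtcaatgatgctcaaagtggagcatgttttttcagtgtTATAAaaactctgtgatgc

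In these windows Cyp2b10 held 2 GCGTG matches, 1 on each strand, and Cyp3a13 held none of the 3 motifs. Cyp2d10 and Cyp2d26 both had TATAA with its first base 29 bases before the start, and Cyp2d26 had it a second time 242 bases before. Cyp2c29 had TATAA 19 bases before the start and AGGTCA 154 bases before it. The genes past 2-fold whose promoters are not shown were all lower than vehicle. Of these, Cyp2f2 held AGGTCA 221 bases before the start, Cyp4v3 held GCGTG 16 bases before it, and Cyp2s1 held none of the 3 motifs. Among all 32851 promoters of the table, 14.0% held AGGTCA, 28.2% GCGTG and 16.0% TATAA in the same window. None of the motifs overlapped another in these 5 sequences. The matches describe letters in the sequence and say nothing of binding.

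The 21 detected members that did not pass 2-fold differed from vehicle by at most 0.90 in size. Of the 29 detected members, 14 differed by under 0.5 from vehicle at all 3 times. Among the foreign-compound families, Cyp1b1, which oxidises estradiol and polycyclic hydrocarbons, was above vehicle on all 3 arrays, with 7.68 in vehicle and 8.23, 8.43 and 8.48 after tamoxifen. Its differences of 0.55, 0.75 and 0.81 did not reach 2-fold, a dimmer second probe set gave 0.31, 0.90 and 0.82, and the dimmest gave 0.19, -0.11 and -0.03. Cyp2c65, a 2C gene of the gut, was at 11.63 in vehicle and 11.36, 11.23 and 11.19 afterwards. Cyp2e1, the ethanol-oxidising enzyme, was at 7.31, 7.53, 6.78 and 7.27 on the 4 arrays, without a steady direction, and Cyp2c23 was at 8.11, 7.71, 8.08 and 8.39.

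Family 4 had 13 measured members and 7 detected ones. Besides Cyp4v3, Cyp4b1 was below vehicle on all tamoxifen arrays, with 5.93 in vehicle and 5.44, 5.09 and 5.29 afterwards. Cyp4f18, an enzyme of neutrophils that inactivates a leukotriene, was above, with 5.79 in vehicle and 6.46, 6.25 and 6.31. Cyp4f13 stayed at 6.54, 6.48 and 6.41 up to 2.5 days and was 5.65 at 4.5 days, a difference of -0.90. Cyp4f15 and Cyp4f16 differed by at most 0.25 in size. The 4A genes, Cyp4a12a, Cyp4a14 and Cyp4a31, of a subfamily known for targets of the fatty acid sensor PPAR alpha, were under the array median throughout, and the gene of that receptor, Ppara, was at 5.88 in vehicle and 5.06, 4.69 and 4.94 after tamoxifen.

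**Figure D3:**
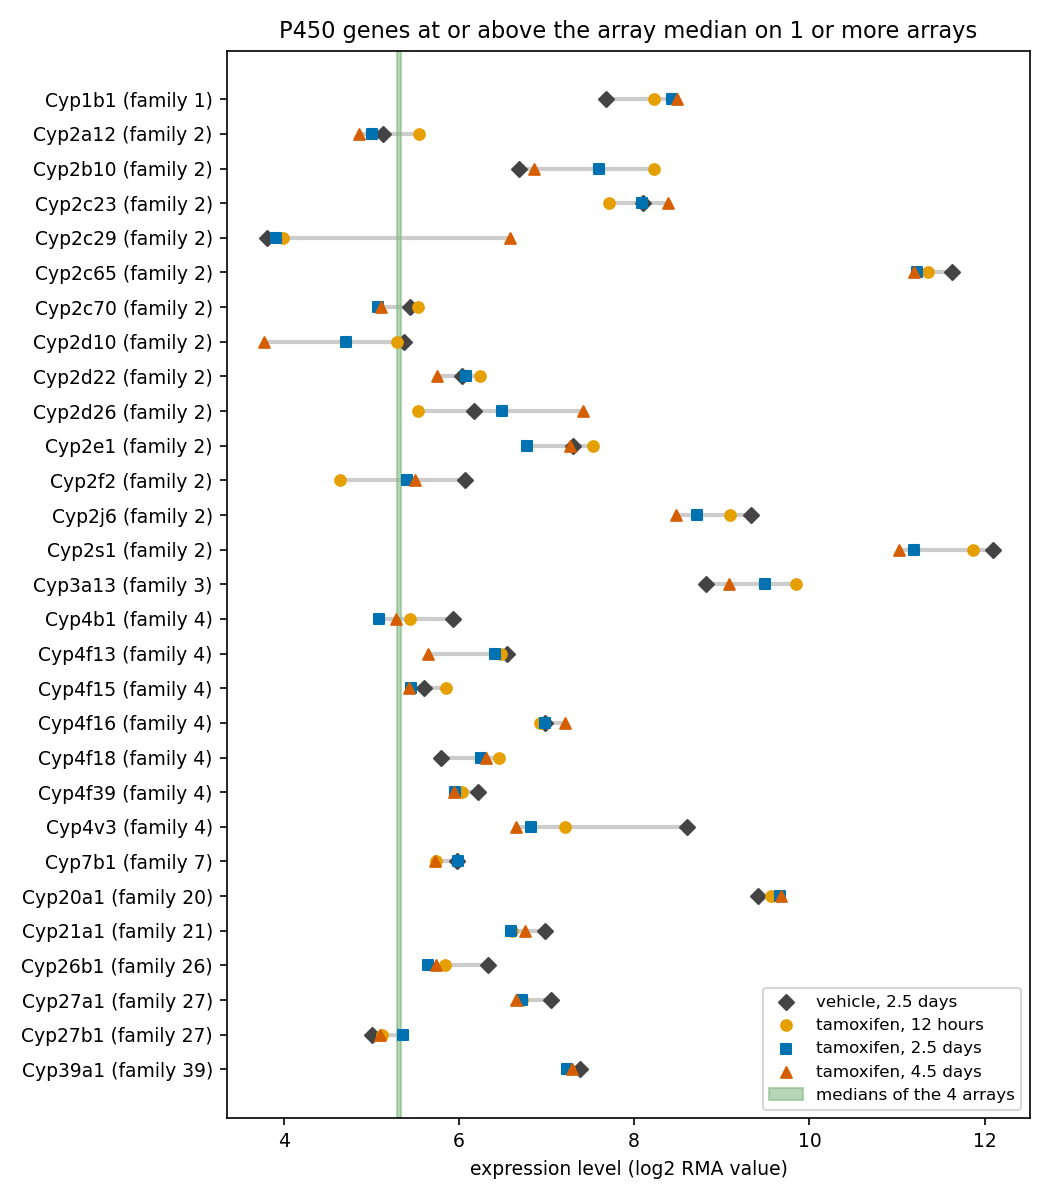
Levels of the 29 P450 genes at or above the array median on at least 1 array, ordered by family number, with 1 symbol per array and a grey bar from the lowest to the highest (log2 RMA values). The widest bars belong to genes past 2-fold, and the green band holds the 4 array medians, 5.30 to 5.34; levels of different genes are not comparable with each other.

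The sterol, bile acid and steroid P450s gave small differences. Cyp27a1, a mitochondrial sterol hydroxylase, was at 7.05 in vehicle and 6.72, 6.72 and 6.66 after tamoxifen. The oxysterol hydroxylase genes Cyp7b1 and Cyp39a1 differed by at most 0.25 and 0.14 in size. Cyp7a1 and Cyp8b1, the liver enzymes of bile acid synthesis, did not rise above 3.78 and 4.65. Cyp21a1, a hydroxylase of the adrenal cortex, read 6.98 in vehicle and 6.61, 6.59 and 6.76 afterwards. Its second probe set was under the array median on all arrays, between 3.88 and 4.45. Cyp11a1, Cyp11b1, Cyp11b2 and Cyp17a1 of the same pathway were under the array median, between 3.00 and 4.97. Cyp46a1, the cholesterol hydroxylase of neurons, and the orphan Cyp20a1 lay at 4.43 to 4.92 and 9.42 to 9.68.

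In the vitamin D pathway, Cyp27b1, which makes the active hormone, was between 5.00 and 5.36, and at or above the array median at 2.5 days only. Cyp24a1, which inactivates it, and Cyp2r1, which makes its precursor, were under the median throughout, and the largest difference of the 43 dim members, 0.85 in size, was that of Cyp2r1. Just inside the cut at the array median were Cyp27b1 at 5.36 and Cyp2d10 at 5.37, and just outside was Cyp2c68, whose highest level was 5.16. None of the 43 dim members differed by 2-fold from vehicle, their range being -0.76 to 0.85.

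Retinoic acid is broken down by the CYP26 enzymes. Cyp26b1 was at 6.34 in vehicle and 5.84, 5.65 and 5.74 at 12 hours, 2.5 and 4.5 days, with differences of -0.50, -0.69 and -0.59, and Cyp26a1 was dim, at 4.63 to 5.02. Genes of retinoic acid synthesis went both ways. Aldh1a3, an enzyme that makes it from retinaldehyde, was at 5.78 in vehicle and 6.87, 7.22 and 7.68 afterwards, past 2-fold at each time, but the retinol dehydrogenase gene Rdh7 went from 10.35 to 8.40, 7.14 and 7.54. Rdh10, which makes retinaldehyde, was 1.02 above vehicle at 4.5 days. The related genes Aldh1a1, Aldh1a2 and Rdh11 were not past 2-fold, with differences from -0.52 to 0.18. Of 13 retinoid genes compared, 1, 1 and 2 were higher and 1, 1 and 1 lower at the 3 times, beside 0.996%, 3.32% and 3.80% of all genes compared that were higher and 1.92%, 1.94% and 2.72% that were lower.

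Enzymes that act beside P450s were followed through lists of redox partners, heme genes, receptors, aryl hydrocarbon receptor targets, retinoid, eicosanoid and steroid genes and other phase I oxidases, 120 genes measured in all. Of the 92 that entered a comparison, 14 (15.2%) passed 2-fold at some time, beside 8.49% of all genes. The lists were chosen with earlier results of these data known, so nothing is read from this share. Single lists had few members past 2-fold, and nothing is read from their counts against the shares of all genes given above. The redox partners, which hand electrons to P450s, had none of 7 past 2-fold, and neither did the 3 aryl hydrocarbon receptor targets compared. Among 11 heme genes Hmox1, which breaks heme down, was the exception at 12 hours, with 6.96 in vehicle and 8.87, 7.41 and 7.28 afterwards. Alas1, the rate-limiting enzyme of heme synthesis, was at 9.83, 9.26, 9.90 and 10.29 on the 4 arrays. Among 19 receptors Nr0b2, a repressor of bile acid P450 genes, was lower at 12 hours, with a difference of -1.15, and Ppara at 2.5 days, with -1.20.

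The eicosanoid list had Ephx2 and Ptgs2 past 2-fold among 16 genes. Ephx2, the soluble hydrolase that removes the epoxides made by P450s of the 2C and 2J subfamilies, was at 9.99 in vehicle and 9.88, 9.21 and 8.72 after tamoxifen. The inducible cyclooxygenase gene Ptgs2 went the other way, from 6.25 to 6.85, 7.54 and 8.29. Among 10 steroid genes Hsd17b2, which oxidises estradiol to estrone, was at 9.02 in vehicle and differed by 0.14, -1.02 and -1.48 at the 3 times, and Hsd17b7 was 1.01 above vehicle at 2.5 days.

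Of the other phase I enzymes, 1 of 12 compared was at least 2-fold lower at 12 hours, 1 of 13 at 2.5 days and 4 of 13 at 4.5 days, when 2.72% of all genes compared were, and none was higher at any time. The carboxylesterase gene Ces2a was at 8.21 in vehicle and 7.85, 6.93 and 6.62 after tamoxifen. Ces1f was at 8.81, 8.59, 8.04 and 7.33 and the flavin monooxygenase gene Fmo5 at 7.99, 8.15, 7.38 and 6.62 on the same arrays. Each of these 3 had its lowest level at 4.5 days. Some detected P450 genes did too, among them Cyp4v3, Cyp2s1, Cyp2j6 and Cyp2d10, and Cyp2c65, Cyp27a1 and Cyp4f39 with smaller differences. Others did not: Cyp4b1, Cyp26b1 and Cyp2e1 were lowest at 2.5 days, and Cyp2f2 and Cyp2d26 at 12 hours. The share of all genes lowest at 4.5 days was not counted, so nothing is read from these orders. Ces1e was at 6.35, 5.26, 5.72 and 4.93.

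**Figure D4:**
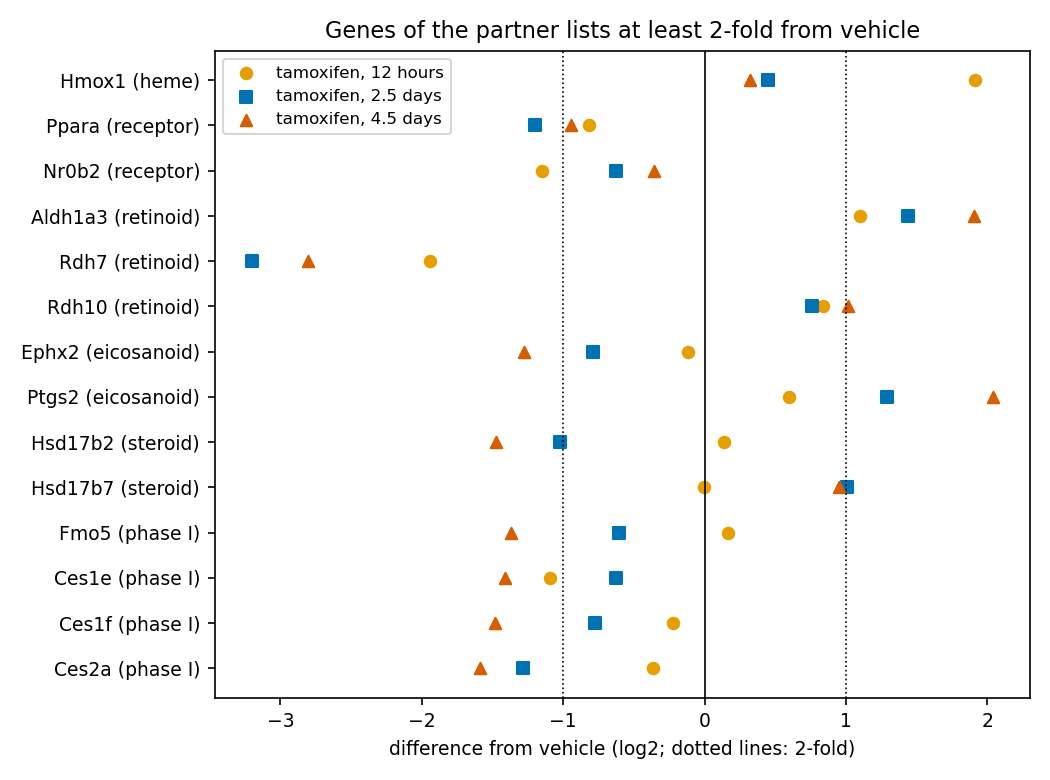
Differences from vehicle (log2) of the 14 genes of the partner lists that passed 2-fold at some time, with the list in brackets and 1 symbol per tamoxifen array. The esterase, epoxide hydrolase and Fmo5 points lie furthest left at 4.5 days, Aldh1a3 and Ptgs2 furthest right at 4.5 days, and Hmox1 at 12 hours.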

How the data were processed

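Total RNA of 3 mice per array was pooled, amplified and labelled with biotin, per the labels' protocols, and read on 1-colour Affymetrix arrays. The authors deposited a log2 value for each of 45101 probe sets. Per the submitters' processing notes these came from RMA and Partek, with versions not given in the sources used here. The log base was inferred from the values. Quantile normalization, a step of RMA, hides shifts shared by most genes, and RMA compresses differences of dim genes.

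Control probe sets (64) and probe sets with several symbols (932) were left out of the gene comparisons. Differences from vehicle were taken in Python 3.11.15 with pandas 2.3.3, and a gene counted when it reached 2-fold and its brighter array was at or above the array median. With 1 array per group no test was made, and the number of arrays limits the precision. The counting was tested on simulated data. All 8 members past 2-fold are named, then members by family and role. Other probe set choices, filters and centrings were tried. The members and lists were chosen with earlier results of these data known.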

Additional observations from a re-analysis of the deposited data

How the results depend on the processing

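Over 6 other settings for the counts and medians at each time, and over these and the 12-hour array left out for the count at any time, 53 of 61 values kept their direction and size within 1.5 times (counts) or 0.15 (medians). Some settings could change little. Of the members past 2-fold only Cyp2b10 and Cyp4v3 have more than 1 probe set, and no dim member reached 2-fold, so leaving out the filter could add none of them. With the filter at the 75th percentile, 1 member was lower at 12 hours, 1 was higher at 4.5 days and 5 of 8 were past 2-fold at any time, since the filter leaves 10 or 11 members to compare, and the median at 4.5 days turned to 0.089 over 10 members. Shifted by the hybridisation controls, 1 member was higher at 12 hours and 1 (Cyp2b10) at 2.5 days, and the median at 4.5 days was -0.086. The same shift took the share of all genes higher and lower from 3.32% and 1.94% to 4.55% and 1.46% at 2.5 days, and from 3.80% and 2.72% to 5.70% and 1.85% at 4.5 days. With the 12-hour array left out, an alternative chosen after seeing the data, 5 members were past 2-fold at any time: Cyp2c29, Cyp2d10, Cyp2d26, Cyp2s1 and Cyp4v3. The loss of Cyp2b10, Cyp3a13 and Cyp2f2 there was fixed in advance, since they were past 2-fold at 12 hours only. No member past 2-fold changed direction under an alternative. No paired analysis was possible because each group has 1 array.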

Other observations

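A further 4 probe sets carry P450 symbols of more than 1 gene and were not used for the members. Those of Cyp3a41a and Cyp3a41b, of Cyp2a4 and Cyp2a5, and of Cyp4a10 and Cyp4a31 were under the array median on all arrays. The probe set shared by Cyp4f16 and Cyp4f37 was at 6.28 in vehicle and 6.30, 6.46 and 6.54 at 12 hours, 2.5 and 4.5 days after tamoxifen, and the 2 probe sets of Cyp4f16 alone gave 0.23 and 0.53 at 4.5 days.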
